A study of Homo sapiens with 4 samples.

Results

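The intermediate filament family was followed in 10 genes chosen by symbol: the keratins KRT8, KRT18 and KRT19, vimentin (VIM), the neurofilament genes NEFL and NEFM, nestin (NES) and the lamin genes LMNA, LMNB1 and LMNB2. All 10 had a row among the 38972 rows of the deposited expression table, and 9 reached the mean of 1 TPM needed to be tested, KRT19 being the exception. TPM is the share of a library's transcripts that a gene holds, corrected for transcript length and scaled to a common total. The 4 RNA-seq libraries came from HEK293T, an established human embryonic kidney cell line, 2 labelled as overexpressing the Flag epitope tag, used here as the control, and 2 labelled as overexpressing RNase H1, an enzyme that cuts RNA paired with DNA. The labels give no vector, clone, time after transfection or expression level for either group. Nothing in them says that replicates were separate cultures. The p-values therefore measure only the spread between these libraries, drawn for each gene also from other genes of similar level. The comparison asks which transcripts differ between the RNase H1 and the Flag libraries.

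Intermediate filaments are rope-like polymers of coiled-coil proteins that give cells mechanical strength. Keratins are obligate pairs of an acidic type I chain, such as keratin 18 or 19, and a basic type II chain, such as keratin 8, and the 8/18 pair is typical of simple epithelia. Vimentin is the type III filament of mesenchymal and most cultured cells, neurofilament chains belong to nerve cells, and nestin, which assembles together with vimentin, is known from neural progenitors. Lamins line the inner face of the nuclear envelope, where A-type lamins come from LMNA and B-type lamins from LMNB1 and LMNB2.

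In the libraries labelled RNase H1, KRT8, KRT18 and VIM were modestly higher, and NEFL and NEFM were lower. NES and the 3 lamin genes did not pass the test. A call here means an adjusted p under 0.05 (limma on log2(TPM + 1), two-sided, Benjamini-Hochberg over all 15651 tested genes). By that rule 3 of the 9 tested members were called higher, against 6.3% of all tested genes, and 2 were called lower, against 5.54%. The 5 called members stand beside 11.8% called in either direction over all tested genes. The called changes of members ranged in size from 0.15 to 0.52 on the log2 scale, beside a median size of 0.42 over all called genes. Of the 9 tested members 4 had positive and 5 negative fold changes, so they did not all move one way. Their median log2 fold change was -0.07, and that of all tested genes was 0.00347. In bulk RNA a change in the number of cells that express a gene and a change in transcripts per cell cannot be told apart.

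Each of the 5 calls rests on all 4 libraries. Leaving out any 1 of them, Flag replicate 1 or 2 or RNase H1 replicate 1 or 2, ended all 5 calls, with adjusted p from 0.0938 to 0.202 and unchanged directions. In such fits a group is a single library whose spread is taken from the other group, and over all genes they gave 0 to 15 calls. The 5 calls also ended when variances followed no intensity trend (adjusted p from 0.0771 to 0.233), and those of KRT8, VIM and NEFM ended without a filter on low values (adjusted p = 0.116, 0.237 and 0.118).

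The label of the RNase H1 libraries was not borne out by the level of RNASEH1, with 32.09 and 32.8 TPM in the Flag libraries against 29.93 and 29.67 TPM in the others (limma adjusted p = 0.260). Whether the labels or the annotation of the overexpressed transcript bear on this was not tested. Directions are therefore those of the libraries as labelled. Markers of embryonic kidney were measured in all libraries, with SALL1 between 29.27 and 34.96 TPM, while PAX8 stayed at or under 0.47 TPM and PAX2 at or under 1.86 TPM. The blood and endothelial genes PTPRC, CD3E, PECAM1, CDH5 and VWF did not exceed 0.3 TPM in any library.

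The members covered a wide range of levels, and their order was the same in all 4 libraries. VIM was the most abundant at a mean of 925 TPM over the 4 libraries, above 99.2% of tested genes. LMNB1 followed at 174 TPM and LMNB2 at 129 TPM, then KRT18 at 91.7, KRT8 at 79.5 and LMNA at 70.6 TPM. NEFM at 36.5 and NEFL at 32.6 TPM came next, and NES at 7.15 TPM was the lowest tested member, above only 34.5% of tested genes. Within each group no 2 neighbours in this order had overlapping values, although KRT8 and LMNA lay close in the Flag libraries, at no less than 72.59 and no more than 71.12 TPM. The GC content of the longest transcript ran from 46.9% in VIM and 48.2% in NEFL to 61.5% in LMNA and 61.8% in KRT19. By rising GC content, VIM was called higher, NEFL and NEFM (54.0%) lower, and KRT18 (55.7%) and KRT8 (56.2%) higher.

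**Figure D1:**
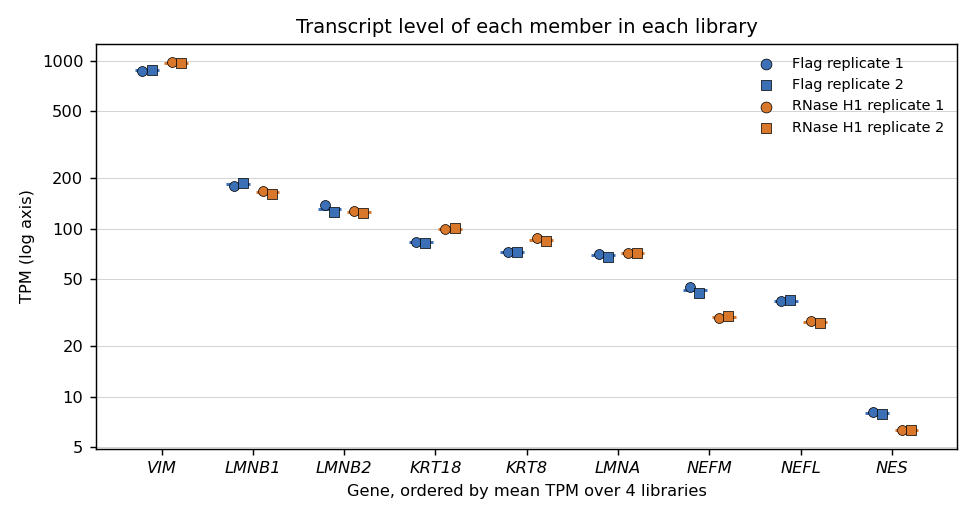
TPM on a log axis for the 9 tested members in each library, with Flag in blue, RNase H1 in orange, circles for replicate 1, squares for replicate 2 and short lines for group means. VIM stands between 867.46 and 979.02 TPM and NES under 10 TPM, and the orange points lie above the blue ones for KRT18, KRT8 and VIM and below them for NEFM and NEFL.

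KRT18, the acidic partner of the simple-epithelial keratin pair (chromosome 12, 52948871 to 52952901, plus strand in GENCODE release 29, GRCh38), was listed at 83.49 and 82.71 TPM in the Flag libraries and at 99.65 and 100.86 TPM in the RNase H1 libraries. Both RNase H1 values lay above both Flag values. The group means were 83.1 ± 0.552 and 100.3 ± 0.856 TPM (SD, n = 2), and KRT18 rose by 0.27 ± 0.05 on the log2 scale (SE, 95% interval 0.15 to 0.38, limma adjusted p = 0.0259). KRT8, its basic partner (chromosome 12, 52897187 to 52949954, minus strand), had 73.19 and 72.59 TPM against 87.57 and 84.79 TPM. Its groups did not overlap either. Mean levels were 72.9 ± 0.424 and 86.2 ± 1.97 TPM (SD, n = 2), a rise of 0.24 ± 0.05 (SE, 95% interval 0.12 to 0.36, limma adjusted p = 0.0376). After quantile normalization KRT8 missed the threshold, with an adjusted p of 0.0502.

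The keratin partners rose in near proportion. The KRT8 to KRT18 ratio of TPM values was 0.877 and 0.878 in the Flag libraries and 0.879 and 0.841 in the RNase H1 libraries, so the groups overlapped (two-sided exact permutation p = 1). With 2 libraries against 2 this test cannot go below 0.333. Their sum went from 156.7 and 155.3 TPM to 187 and 186 TPM. The gene models share 1084 bases at their ends on opposite strands, and no source used here says whether counting used strand. GENCODE release 29 also lists 50 pseudogenes of KRT8 and 67 of KRT18, processed copies that resemble the parent transcripts. Of these copies 0 had a row under their symbol, and rows under other names were not searched. How reads were shared among the copies is not given, so the levels of both keratins are uncertain to that extent.

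KRT19, an acidic keratin of simple and ductal epithelia, was listed at 0 in both Flag libraries and in RNase H1 replicate 1, and at 0.28 TPM in RNase H1 replicate 2. It was not tested, and TPM keeps no depth from which a detection limit could be given. Of the 55 rows with a keratin symbol, 51 had a mean under 1 TPM, 28 of them 0 in every library, and no single value among these 51 passed 0.73 TPM. The 4 keratins above that level were KRT8, KRT18, KRT10 and KRT222. KRT10, an acidic keratin known from differentiating epidermis, had 17.42 and 16.65 TPM against 18.59 and 21.45 TPM (log2 0.22 ± 0.10, SE, limma adjusted p = 0.181).

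VIM (chromosome 10, 17228259 to 17237593, plus strand) was listed at 867.46 and 887.65 TPM in the Flag libraries and at 979.02 and 964.63 TPM in the RNase H1 libraries. The groups were apart by more than the distance between replicates. VIM rose from 878 ± 14.3 to 972 ± 10.2 TPM (SD, n = 2), a small step of 0.15 ± 0.03 on the log2 scale (SE, 95% interval 0.07 to 0.23, limma adjusted p = 0.0416). Of all tested genes 27.7% had a larger log2 fold change than VIM. Its standard error was the smallest of the members in this fit, where variances follow a trend with level. Without the trend it was 0.0642, beside 0.0632 for KRT18. The call ended after correction for GC content (log2 0.13, adjusted p = 0.0584). VIM-AS1, an antisense transcript that overlaps the start of VIM on the other strand, had 4.11 and 2.46 TPM against 4.83 and 3.92 TPM, and its groups overlapped (log2 0.35 ± 0.22, SE, limma adjusted p = 0.334).

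RefSeq start windows on GRCh38.p14 matched 6 of the 10 members, in 9 windows. The 250 bases before the start are shown for VIM and KRT8, the members called higher that had an entry. The VIM window is chr10:17227991-17228240 on the plus strand, and the KRT8 window is chr12:52926470-52926719 on the minus strand, ahead of a start that lies inside the GENCODE model, which has 17 transcripts. Capitals mark matches to the searched motifs, a GC box in VIM 46 bases and an ETS core in KRT8 57 bases before the start.
VIM: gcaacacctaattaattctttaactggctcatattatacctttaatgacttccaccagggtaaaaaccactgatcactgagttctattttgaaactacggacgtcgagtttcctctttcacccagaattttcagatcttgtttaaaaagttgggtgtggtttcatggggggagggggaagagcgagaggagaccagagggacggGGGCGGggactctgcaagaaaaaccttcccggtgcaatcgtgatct
KRT8: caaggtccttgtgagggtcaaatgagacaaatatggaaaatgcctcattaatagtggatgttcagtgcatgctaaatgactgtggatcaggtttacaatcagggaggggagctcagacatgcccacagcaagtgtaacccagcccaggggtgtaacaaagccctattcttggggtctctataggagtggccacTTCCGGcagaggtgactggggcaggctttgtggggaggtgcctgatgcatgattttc

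Motifs were searched on both strands of the 250 bases. LMNA and LMNB1 have more than 1 window each, so windows do not count genes, and every LMNA window holds a GC box. The GC box GGGCGG occurred in 7 of the 9 member windows and in 42.6% of all 35116 RefSeq windows of that length. The ETS core CCGGAA occurred in 2 member windows, those of KRT8 and LMNB2, and in 14.5% of all windows. The CCAAT box matched in 2 member windows, 1 each of LMNA and LMNB1, against 32.01% of all windows, and the E-box CACGTG in 1 LMNB1 window, against 6.34%. The AP-1 site TGANTCA, the CRE site TGACGTCA and the TATA box TATAAA matched in 0 of the 9 windows, against 6.57%, 1.65% and 10.7% of all windows. Such matches describe these letters only.

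NEFM, the medium neurofilament chain (chromosome 8, 24913012 to 24919098, plus strand), showed the largest change of the tested members. It stood at 44.85 and 41.68 TPM in the Flag libraries and at 29.33 and 30.19 TPM in the RNase H1 libraries, with a wide gap between the groups. It fell from 43.3 ± 2.24 to 29.8 ± 0.608 TPM (SD, n = 2), a log2 fold change of -0.52 ± 0.07 (SE, 95% interval -0.69 to -0.36, limma adjusted p = 0.0145). Of all tested genes 4.13% had a lower log2 fold change. Antisense transcripts overlap NEFM (AF106564.1) and NEFL (AC107373.2) on the other strand, and their levels are not given here.

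NEFL, the light chain that nucleates neurofilaments (chromosome 8, 24950955 to 24957110, minus strand), lies 31856 bases from NEFM. Its values were 36.96 and 37.7 TPM against 28.09 and 27.62 TPM, and replicates differed by under 1 TPM in both groups. NEFL fell from 37.3 ± 0.523 to 27.9 ± 0.332 TPM (SD, n = 2), a log2 fold change of -0.41 ± 0.06 (SE, 95% interval -0.56 to -0.26, limma adjusted p = 0.0196). The NEFL to NEFM ratio was 0.824 and 0.905 in the Flag libraries and 0.958 and 0.915 in the RNase H1 libraries, apart without overlap but by only 0.12 on the log2 scale (two-sided exact permutation p = 0.333, the smallest possible).

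NES (chromosome 1, 156668763 to 156677397, minus strand) had 8.15 and 7.86 TPM in the Flag libraries and 6.3 TPM in each RNase H1 library. The groups did not overlap, but the log2 fold change of -0.30 ± 0.11 (SE, 95% interval -0.56 to -0.04) missed the threshold (limma adjusted p = 0.114). Set against its filament partner, the NES to VIM ratio was 0.00940 and 0.00885 in the Flag libraries and 0.00644 and 0.00653 in the RNase H1 libraries. This was the widest shift among the 6 ratios computed, at -0.49 on the log2 scale (two-sided exact permutation p = 0.333, the smallest possible).

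**Figure D2:**
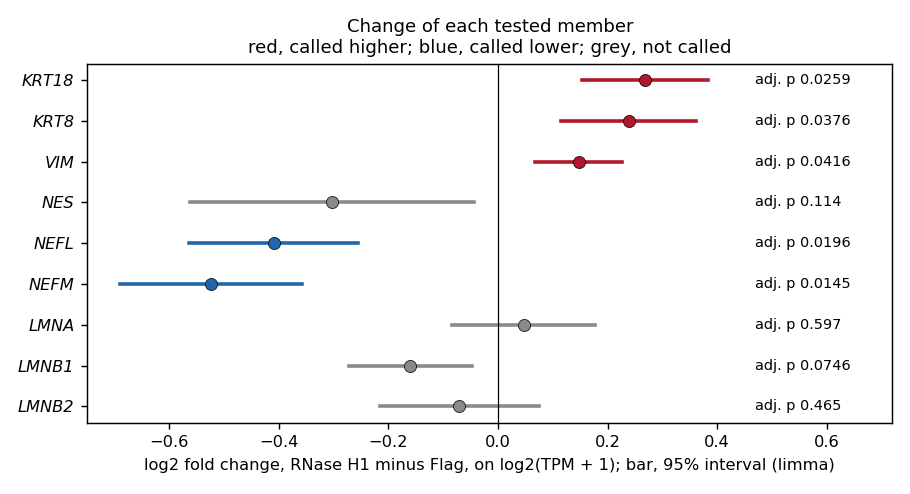
Log2 fold change of each tested member between RNase H1 and Flag libraries on the log2(TPM + 1) scale, with 95% intervals from limma and the adjusted p at the right, red for called higher, blue for called lower and grey for not called. KRT18, KRT8 and VIM lie above 0, NEFL and NEFM below -0.4, and the intervals of LMNA and LMNB2 span 0.

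None of the 3 lamin genes was called, and their 95% intervals bound the fold changes between -0.27 and 0.18 on the log2 scale. LMNB1, which encodes lamin B1 (chromosome 5, 126776623 to 126837020, plus strand), had 180.25 and 188.19 TPM against 167.35 and 162.14 TPM. Both RNase H1 values were below both Flag values, with means of 184 ± 5.61 and 165 ± 3.68 TPM (SD, n = 2). The log2 fold change was -0.16 ± 0.05 (SE, 95% interval -0.27 to -0.05, limma adjusted p = 0.0746). After quantile normalization LMNB1 was called lower, with an adjusted p of 0.0431.

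LMNB2, which encodes lamin B2 (chromosome 19, 2427638 to 2456996, minus strand), had 138.15 and 125.86 TPM against 127.72 and 123.34 TPM, and it was the only tested member whose groups overlapped. Its log2 fold change was -0.07 ± 0.06 (SE, 95% interval -0.22 to 0.07, limma adjusted p = 0.465), and its sign turned after GC correction, at 0.01. LMNB2 overlaps TIMM13, a mitochondrial import gene on the same strand, which had 59.88 and 62.56 TPM against 51.66 and 55.14 TPM. LMNA (chromosome 1, 156082573 to 156140089, plus strand) had 71.12 and 67.81 TPM against 71.61 and 71.91 TPM. The RNase H1 values lay above the Flag values by less than the distance between the Flag replicates, and the log2 fold change was 0.05 ± 0.05 (SE, 95% interval -0.08 to 0.18, limma adjusted p = 0.597). The LMNA row does not separate lamin A from lamin C, its main splice forms.

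The 3 lamin genes summed to 390 and 382 TPM in the Flag libraries and to 367 and 357 TPM in the RNase H1 libraries. LMNA made up 18.3% and 17.8% of that sum against 19.5% and 20.1%, so its share was higher in both RNase H1 libraries. The LMNA to LMNB1 ratio was 0.395 and 0.360 against 0.428 and 0.444, and the LMNA to LMNB2 ratio 0.515 and 0.539 against 0.561 and 0.583 (two-sided exact permutation p = 0.333 for each, the smallest possible). The ratio of LMNB1 to LMNB2 overlapped between groups, at 1.30 and 1.495 against 1.31 and 1.31 (exact permutation p = 1).

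**Figure D3:**
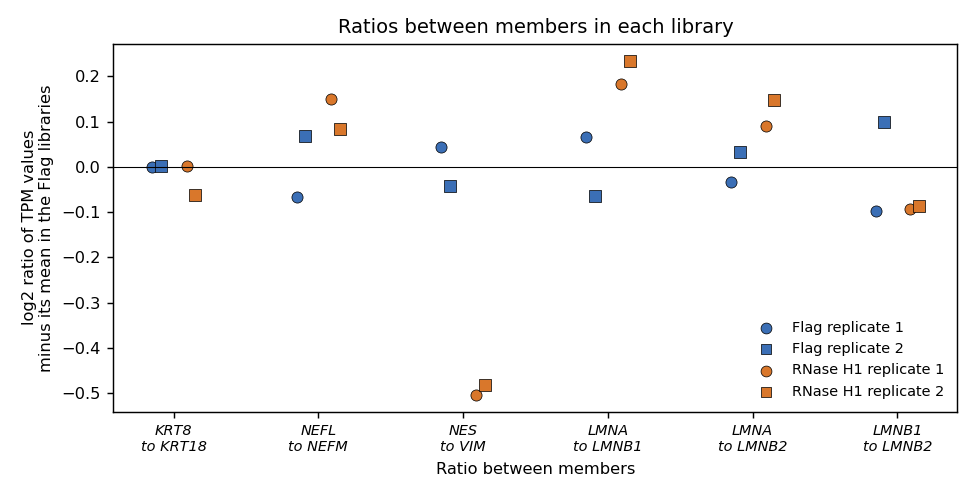
Log2 ratio of TPM values for 6 pairs of members in each library, each pair shown relative to its mean in the Flag libraries, with Flag in blue, RNase H1 in orange, circles for replicate 1 and squares for replicate 2. The NES to VIM ratio lies near -0.5 in both RNase H1 libraries, the LMNA to LMNB1 ratio near 0.2, and the KRT8 to KRT18 and LMNB1 to LMNB2 ratios overlap between groups.

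Groups did not overlap in 8 of the 9 tested members, 4 with higher and 4 with lower values in the RNase H1 libraries. Over all tested genes 60.7% did not overlap, and at an unadjusted p under 0.05 stood 7 of 9 members beside 31.3% of all tested genes.

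**Figure D4:**
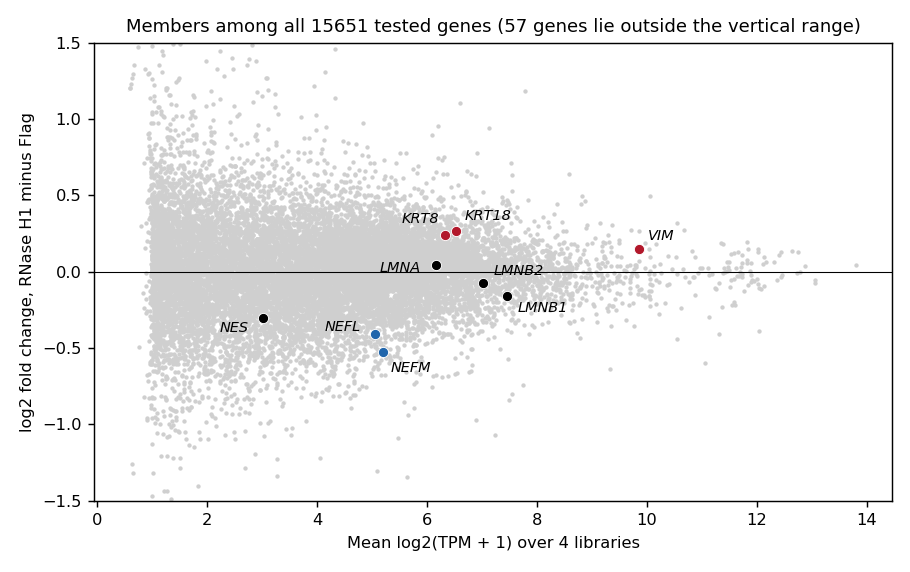
Log2 fold change against mean log2(TPM + 1) for the 15651 tested genes in grey, of which 57 lie beyond the vertical range of 1.5, with the members in red where called higher, blue where called lower and black where not called. VIM stands far to the right at a change of 0.15, and NEFM and NEFL lie at the lower side of the genes of their level.

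The genes whose 4 centred log2 values lay nearest to those of NEFM, the called member with the smallest p, were WNK2, PPOX and ENSG00000269930, out of 11244 other genes whose mean reached 5 TPM. Likeness was the Euclidean distance over the 4 libraries, which mostly reflects the group difference. WNK2, a protein kinase, had 35.23 and 32.65 TPM against 22.89 and 23.92 TPM at a distance of 0.0164. PPOX, an enzyme of heme synthesis, had 12.13 and 11.01 TPM against 7.68 and 7.98 TPM at 0.0248. Among the members NEFL came nearest to NEFM, at rank 190 by distance, followed by NES at rank 554.

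Other intermediate filament genes were mostly low, and none was called. Of 43 listed genes 11 were tested, and 0 passed limma in either direction, with 2 at an unadjusted p under 0.05. Their median log2 fold change was 0.20, beside 0.00347 for all tested genes. Of all tested genes 11.8% were called and 31.3% had an unadjusted p under 0.05 (limma). The same shares stand beside the counts of this list and of each list below. The filament genes of nerve cells did not all point the way of NEFL and NEFM. INA, which encodes alpha-internexin and coassembles with neurofilament chains, had 4.78 and 4.82 TPM against 6.67 and 6.26 TPM (log2 0.36 ± 0.12, SE, limma adjusted p = 0.0966). PRPH, which encodes peripherin, a type III filament of peripheral nerve cells, had 6.38 and 5.47 TPM against 4.08 and 4.28 TPM (log2 -0.42 ± 0.13, limma adjusted p = 0.0943). NEFH, the heavy neurofilament chain, was at or under 0.27 TPM in every library and was not tested.

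Proteins that tie filaments to junctions or turn them over gave 2 lower calls, 0 higher and 14 not called among 16 tested of 21 listed, with a median of -0.02. FBF1, a keratin-binding protein of junctions and centrioles, fell from 10.96 and 13.45 TPM to 7.96 and 6.9 TPM (log2 -0.64 ± 0.13, limma adjusted p = 0.0363). STUB1, a ubiquitin ligase that works with chaperones, fell from 65.33 and 65.02 TPM to 48.15 and 52.45 TPM (log2 -0.37 ± 0.06, limma adjusted p = 0.0246). Both calls ended after GC correction (adjusted p = 0.0507 and 0.0567). DSP encodes desmoplakin, the linker of keratins to desmosomes. It had 72.53 and 70.61 TPM against 75.69 and 73.25 TPM (log2 0.06 ± 0.05, adjusted p = 0.508). DST, a linker to hemidesmosomes, missed the threshold (log2 0.28 ± 0.07, adjusted p = 0.0508). TCHP (log2 -0.28, limma adjusted p = 0.0678), PKP4 (-0.33, 0.106) and PLEC (-0.27, 0.111) were lower and missed it too. At an unadjusted p under 0.05 (limma) stood 6 of the 16 tested genes of this list.

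Partners of the lamina gave 1 higher call, 0 lower and 17 not called among 18 tested of 20 listed, with a median of -0.02. At an unadjusted p under 0.05 (limma) stood 8 of these 18, beside 31.3% of all tested genes. Among those not called, LEMD2 (log2 -0.33, limma adjusted p = 0.0580) and SYNE1 (-0.39, 0.0677) were lower. TOR1A (log2 0.24, limma adjusted p = 0.0626) and TOR1AIP1 (0.24, 0.0739) were higher. ANKLE2, a LEM-domain protein needed to rebuild the nuclear envelope after mitosis, rose from 70.06 and 71.61 TPM to 84.54 and 87.75 TPM (log2 0.28 ± 0.05, SE, limma adjusted p = 0.0293). The lamin B receptor gene LBR had 195.83 and 192.14 TPM against 195.94 and 181.65 TPM (log2 -0.04 ± 0.05, adjusted p = 0.639). The 6 genes listed for lamin maturation gave 0 calls, with 1 at an unadjusted p under 0.05 (limma). That one was ZMPSTE24, the protease that matures prelamin A, at 85.82 and 83.74 TPM against 106.05 and 91.75 TPM (log2 0.22 ± 0.08, adjusted p = 0.116).

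Markers of the cell types in which these filaments are best known gave 3 higher calls and 0 lower. Of 12 epithelial markers 5 were tested and 0 called by limma, with 1 at an unadjusted p under 0.05, and their sum was 9.6 and 10.6 TPM in the Flag libraries against 13.01 and 9.08 TPM. CLDN3 was 0 in every library, and CDH1, which encodes E-cadherin, had 2.23 and 2.11 TPM against 1.13 and 1.23 TPM (log2 -0.54 ± 0.18, adjusted p = 0.104). Other members of that list had fold changes of the opposite sign, EPCAM with 1.51 and 2.32 TPM against 4.33 and 2.18 TPM (log2 0.51 ± 0.29, adjusted p = 0.284) and ELF3 with 0.68 and 1.04 TPM against 1.21 and 1.72 TPM (log2 0.41 ± 0.23, adjusted p = 0.289). Of 13 mesenchymal markers 12 were tested, with 2 higher, 0 lower and 10 not called and a median of -0.08. Fold changes of these 12 were positive in 5 and negative in 7. SNAI1, a repressor of epithelial genes, rose from 3.48 and 3.68 TPM to 9.96 and 11.97 TPM (log2 1.38 ± 0.13, limma adjusted p = 0.00820), and FN1, fibronectin, from 15.01 and 14.47 TPM to 18.52 and 20.47 TPM (0.38 ± 0.09, adjusted p = 0.0449, lost after GC correction at 0.0722 and with median-of-ratios scaling at 0.0506). The summed mesenchymal level was 187 and 188 TPM against 195 and 193 TPM.

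Of 12 neural markers, which include GFAP from the filament list, 8 were tested, with 1 higher, 0 lower and 7 not called and a median of 0.12. TUBB3, the beta-tubulin of nerve cells, rose from 11.43 and 14.66 TPM to 21.33 and 20.85 TPM (log2 0.66 ± 0.12, SE, limma adjusted p = 0.0294), opposite in direction to NEFL and NEFM. The summed neural level was 62.8 and 69.7 TPM against 73.0 and 76.2 TPM. Embryonic kidney markers gave 0 calls among 9 tested, with 1 at an unadjusted p under 0.05 (limma), and so did the 2 tested blood and endothelial markers, again with 1. The part of these markers in the changes of the filament genes was not tested. The calls of FBF1, STUB1, ANKLE2, SNAI1, FN1 and TUBB3 also ended when any 1 library was left out, with adjusted p from 0.0878 to 0.196, and without a filter or without an intensity trend, with adjusted p from 0.0747 to 0.277.

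**Figure D5:**
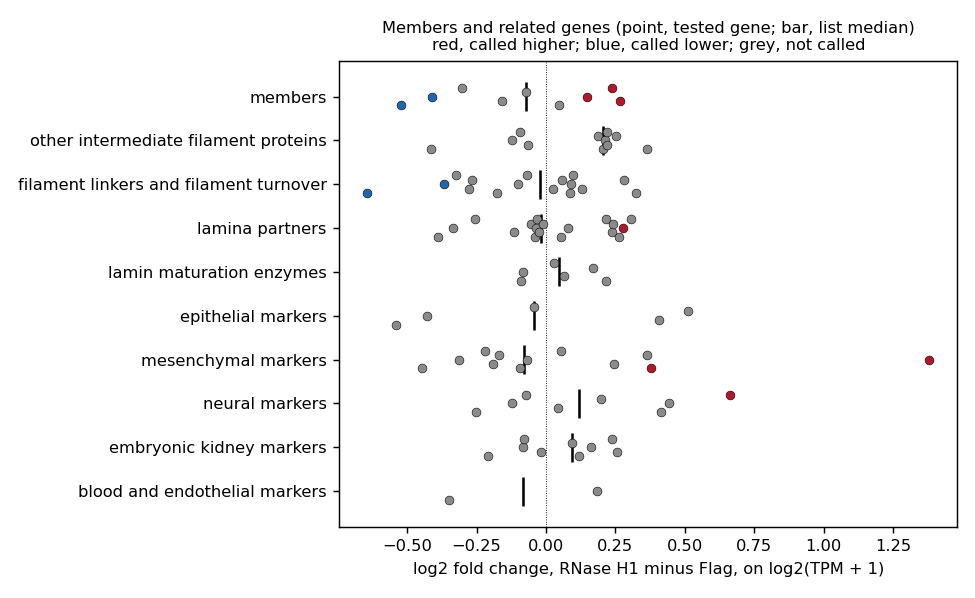
Log2 fold changes of the tested members and of the tested genes in 9 related lists, where each point is a gene, the bar is the list median, red is called higher, blue called lower and grey not called. The medians lie between -0.08 and 0.20, and calls outside the members are FBF1 and STUB1 among the linkers, ANKLE2 among the lamina partners, SNAI1 and FN1 among mesenchymal and TUBB3 among neural markers.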

How the data were processed

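RNA-seq of 4 HEK293T libraries (2 Flag, 2 RNase H1) was used, made from TRIzol-extracted total RNA with the VAHTS mRNA-seq V3 kit, per the labels' protocols. The authors deposited 1 table of TPM with a column per library. STAR and hg38 are named per the submitters' processing notes, while the sources used here give no versions, quantification program, annotation or strand setting. Columns summed to between 998901 and 998955 TPM. TPM keeps no depth, and without a known depth no interval for counting error could be given.

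The 15651 genes whose mean reached 1 TPM were compared as log2(TPM + 1) with limma 3.58.1 in R 4.3.3, with moderated variances that follow an intensity trend and Benjamini-Hochberg adjustment over all of them. The pseudocount of 1 makes fold changes of low genes smaller. The fit was tested on simulated data. Ratios between members were compared by exact permutation of the libraries. Gene models were those of GENCODE release 29 (GRCh38), to which 3110 rows could not be matched. Members and lists were chosen with earlier results of these data known. Named were all members, the called genes of each list (at most 4 in each direction) and RNASEH1. Also named were VIM-AS1 and the 3 genes nearest to the called member with the smallest p. Expressed pseudogene copies were to be named too, but no copy had a row under its symbol. Other genes named were chosen after their values were seen, and a listed gene is not reported here. Alternatives were 2 other pseudocounts (0.1 and 5), no filter, a minimum of 5 TPM, 2 scalings, no trend, the replicate number as a block, each library left out, and GC correction (a spline with 4 degrees of freedom, on the 97.8% of tested genes with a model). Python 3.11.15 with matplotlib 3.10.9 drew the figures.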

Additional observations from a re-analysis of the deposited data

How the results depend on the processing

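Signs held for 8 of the 9 tested members under all 13 alternatives, and the log2 fold change of LMNB2 turned to 0.013 after GC correction. The 5 called members kept their calls with pseudocounts of 0.1 and 5, a minimum of 5 TPM, median-of-ratios scaling and the replicate number as a block. Without a filter on low values 1 member was higher and 1 lower, KRT18 and NEFL, with 414 calls among all genes and 2 among the related lists. Without an intensity trend 0 members were higher or lower, with 1 call among all genes and 0 among the related lists, against 5 members and 4337 genes at an unadjusted p under 0.05. The related lists held 6 calls, 12 with a minimum of 5 TPM and 12 with the replicate block. Leaving out 1 library gave 0 members called higher or lower, 0 to 15 calls over all genes (limma, against 5 or 6 members and 3367 to 4035 genes at an unadjusted p under 0.05) and 0 calls in the related lists. The replicate block gave 2442 calls over all genes, against 1853, and changed no call among the members. Deviations of same-numbered libraries correlated at 0.03 over genes. That value shows little shared deviation, but with 2 libraries a group it cannot show whether replicates were made in pairs. With 2 libraries a group and no recorded depth, only changes well above replicate distance could be called, and KRT19 and other genes under 1 TPM could not be tested.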
